A study of Homo sapiens with 6 samples.

Results

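The proteasome genes were studied in PC3, a human prostate cancer cell line from a bone metastasis, whose RNA was sequenced untreated, after 2 h and after 4 h with 50 µM heme in the medium. Each of the 3 groups held 2 libraries of total RNA, and no agent was common to all of them. The labels name no vehicle for the untreated cells and give no origin in separate cultures for the replicates, and the p-values therefore reflect differences between libraries that may be only technical. In bulk RNA, fewer cells of a type and less RNA per cell cannot be told apart. The members were all gene symbols of the form PSMA to PSMG followed by digits, together with POMP, which gave 49 of 33514 symbols. The 6 other symbols starting with PSM, such as PSMC3IP and PSMA3-AS1, were left out. The 49 members comprised 7 alpha and 7 constitutive beta subunits of the 20S core, 5 immunoproteasome or tissue-specific core subunits, 6 ATPases and 11 non-ATPase subunits of the 19S regulatory particle, 3 assembly chaperones of that particle, 5 activators and inhibitors, and 5 assembly factors of the core. Of these, 47 passed the filter on low counts and were tested. PSMA8, a testis-specific alpha subunit, and PSMB11, the beta subunit of thymic cortex, had 0 counts throughout. At these depths that limits each to 0.0565 CPM (counts scaled to a common library size) in the shallowest library.

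The proteasome degrades proteins marked with ubiquitin. Its 20S core is a barrel of stacked rings: outer alpha rings gate the entrance, and inner beta rings carry the proteolytic sites. The 19S particle caps the barrel, recognises ubiquitin, removes it and unfolds the substrate with a ring of ATPases. Interferon-induced subunits replace the catalytic beta subunits in the immunoproteasome, which favours peptides for antigen presentation. Subunit genes are known to be induced together by the transcription factor NFE2L1 (also called NRF1) when proteasome activity falls short.

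Between 53129375 and 55537611 reads per library were assigned to genes. The members took 0.737% and 0.747% of these in controls, 0.659% and 0.656% at 2 h, and 0.732% and 0.693% at 4 h. HMOX1, the heme-degrading enzyme used here as a check of the treatment, was at 10.4 and 11.4 CPM in controls, 451 and 328 CPM at 2 h, and 382 and 341 CPM at 4 h. The epithelial markers KRT8, KRT18, KRT19 and EPCAM stood above 260 CPM in every library. EPCAM was lower at 2 h than in controls (log2 -0.29, SE 0.09, edgeR adjusted p = 0.0313), a fall of the size seen in the members, and KRT19 was lower at 4 h than at 2 h (log2 -0.36, SE 0.11, edgeR adjusted p = 0.0224); their part in the results was not tested. VIM stood between 13.1 and 18.9 CPM, and KLK3, which PC3 is known to lack, had 0 counts in every library. The red cell genes HBB, HBA1 and HBA2 had 0 counts in every library. CPM values below were scaled with TMM, a normalization on the bulk of genes. Fold changes are given on the log2 scale, each with a standard error (SE). A gene is called when edgeR's quasi-likelihood test gave a Benjamini-Hochberg adjusted p under 0.05 over all 16209 tested genes.

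After 2 h of heme, the messenger RNAs of much of the proteasome were less abundant than in untreated cells, and those of the immunoproteasome subunits were not among them. Of the 47 tested members 18 fell (38.3%) and 0 rose, against 15.8% of all tested genes that fell and 15.9% that rose. The median log2 fold change of the tested members was -0.23, and that of all tested genes 0.017. Both heme libraries lay below both controls for 37 of the 47 (78.7%), against 33.2% of all tested genes. The members are abundant (median 145.5 CPM, against 18.4 CPM for all tested genes), and abundant genes fell more often: among genes with a mean of at least 20 CPM, 17 of 43 members (39.5%) and 25.6% of all genes fell. The falls were modest, with the largest leaving 62.6% of the control level.

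By role, 6 of 7 alpha subunits (85.7%), 2 of 7 constitutive beta subunits (28.6%) and 2 of 6 ATPases (33.3%) fell at 2 h. So did 6 of 11 non-ATPase subunits (54.5%) and 2 of 5 core assembly factors (40.0%). Of all tested genes 15.8% fell, and of those with a mean of at least 20 CPM 25.6%. The counts for the beta subunits and the ATPases are near this background of abundant genes. None of the 3 regulatory particle chaperones, the 5 activators and inhibitors or the 3 tested immunoproteasome subunits passed the test by edgeR. At an unadjusted p under 0.05 these were 2, 1 and 0 lower and 0, 0 and 0 higher, and DESeq2 called 1 chaperone and 1 activator lower. The number of members called rested on the controls: fewer were called when either control replicate was left out. In both cases the median log2 fold change of the members was -0.25, and fewer genes were called over all tested genes too. POMP, PSMG1, PSMA3 and PSMD12 were called under all 13 alternative settings. The difference between the groups of subunits was not tested.

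**Figure D1:**
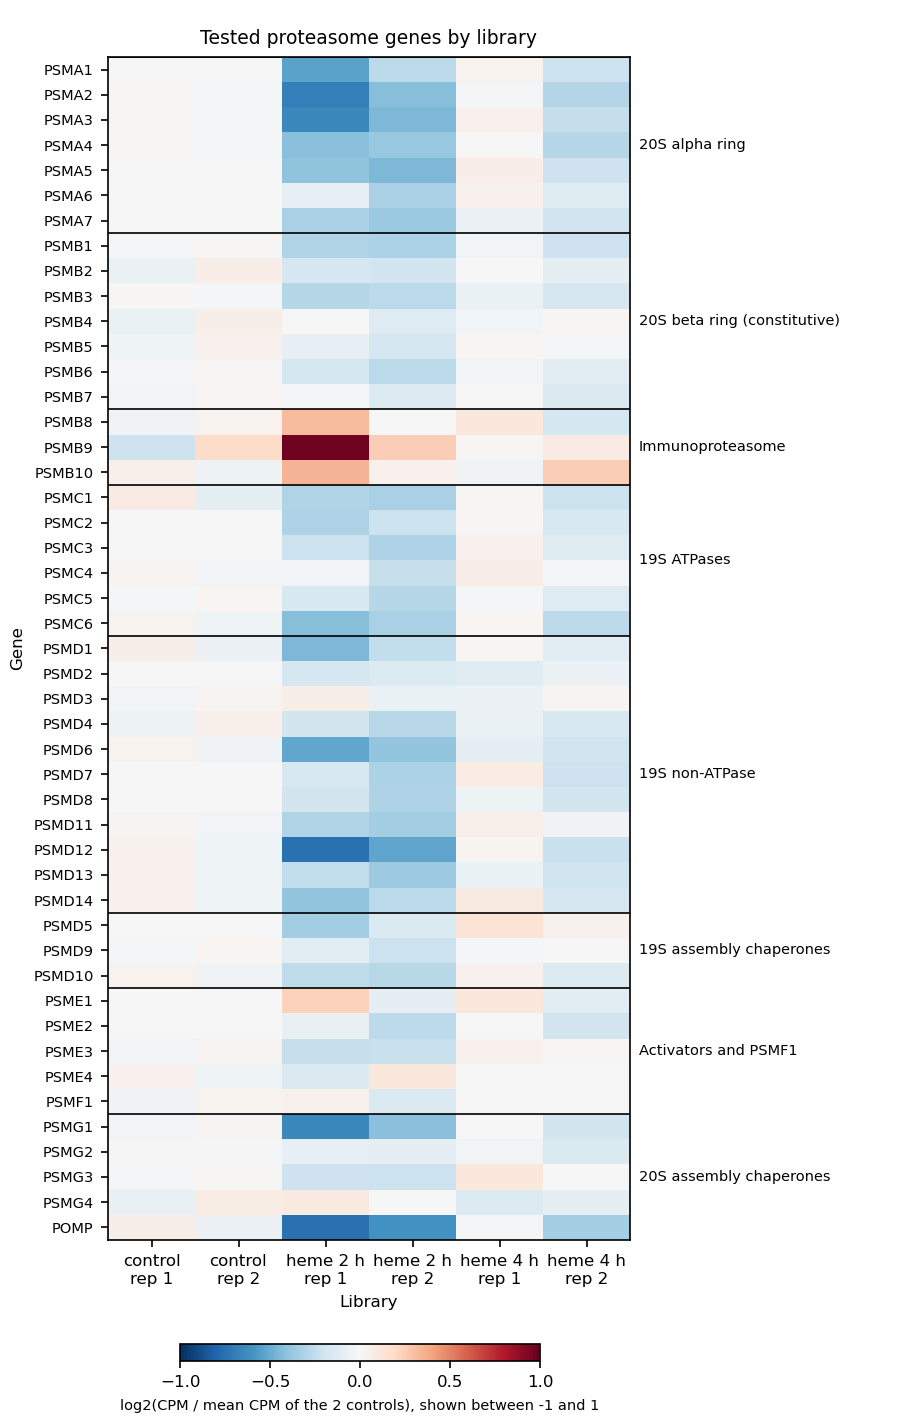
Log2 ratio of each library's CPM to the mean of the 2 controls for the 47 tested members (rows, by role) in the 6 libraries (columns). The 2 h libraries are blue (lower) across the alpha ring and much of the 19S particle, the 3 immunoproteasome genes are red or near 0 there, and 4 h replicate 2 is lower than 4 h replicate 1 in 40 of 47 rows.

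The largest fall was that of an assembly factor of the core. POMP, the maturation protein that builds the beta ring onto the alpha ring, had 119 and 110.3 CPM in controls, 68.3 and 75.5 CPM at 2 h, and 114 and 90.9 CPM at 4 h. Both 2 h libraries lay below every other library, while the 4 h libraries straddled the lower control. The log2 fold change at 2 h was -0.68 (SE 0.12, edgeR adjusted p = 6.81e-04). PSMG1, which with PSMG2 scaffolds the alpha ring, had 96.2 and 100 CPM in controls, 62.6 and 73.5 CPM at 2 h, and 98.0 and 86.3 CPM at 4 h. The 2 h libraries again lay below all others (log2 -0.53, SE 0.11, edgeR adjusted p = 0.00254). Its partner PSMG2 was not called, with 118 and 117 CPM at 2 h against 125 and 123 CPM in controls (log2 -0.08, SE 0.09). The other pair of alpha ring chaperones was not called either: PSMG3 was at log2 -0.21 (SE 0.11, edgeR adjusted p = 0.159) and PSMG4 at log2 0.05 (SE 0.12). PSMG3 had 40.5 and 41.0 CPM in controls, 35.4 and 35.1 CPM at 2 h, and 43.7 and 40.9 CPM at 4 h, and its 2 h libraries did not overlap the controls.

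Within the alpha ring PSMA3, PSMA2 and PSMA5 had the smallest p-values at 2 h. PSMA3 had 413 and 407 CPM in controls, 262 and 301 CPM at 2 h, and 422 and 348 CPM at 4 h. Its 2 h libraries were the lowest, and 1 of the 4 h libraries exceeded both controls (log2 at 2 h -0.54, SE 0.11, edgeR adjusted p = 0.00176). PSMA2 had 19.6 and 19.3 CPM in controls, 12.1 and 14.5 CPM at 2 h, and 19.2 and 15.9 CPM at 4 h (log2 at 2 h -0.55, SE 0.14, edgeR adjusted p = 0.00975). PSMA5 had 203 and 201 CPM in controls, 153 and 148 CPM at 2 h, and 212 and 175 CPM at 4 h (log2 at 2 h -0.42, SE 0.10, edgeR adjusted p = 0.00681). For all 3 genes the 2 h libraries did not overlap the controls. PSMA1 (log2 -0.40), PSMA4 (log2 -0.40) and PSMA7 (log2 -0.35) fell as well. PSMA6 was the alpha subunit not called (log2 -0.20, SE 0.12, edgeR adjusted p = 0.222), although its 2 h values of 45.5 and 38.4 CPM lay below its control values of 48.2 and 47.8 CPM. Summed over the 7 genes, the alpha ring made up 1250 and 1236 CPM in controls, 903 and 943 CPM at 2 h, and 1259 and 1063 CPM at 4 h.

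In the constitutive beta ring PSMB1 and PSMB3, which carry no proteolytic site, fell at 2 h. PSMB1 had 280.2 and 284 CPM in controls, 229.5 and 227 CPM at 2 h, and 277 and 245 CPM at 4 h (log2 at 2 h -0.31, SE 0.09, edgeR adjusted p = 0.0224). PSMB3 had 118 and 115.5 CPM in controls, 95.9 and 96.6 CPM at 2 h, and 111.5 and 104 CPM at 4 h (log2 at 2 h -0.28, SE 0.09, edgeR adjusted p = 0.0372). The heme libraries of both genes lay below their controls at 2 h and at 4 h. The 3 catalytic subunits were not called. PSMB6, of the caspase-like site, had 135 and 137 CPM in controls, 120.3 and 112 CPM at 2 h, and 133 and 126 CPM at 4 h (log2 at 2 h -0.22, SE 0.09, edgeR adjusted p = 0.0853). PSMB5, of the chymotrypsin-like site that bortezomib blocks, was at log2 -0.13 (SE 0.09, edgeR adjusted p = 0.311), and PSMB7, of the trypsin-like site, at log2 -0.07 (SE 0.10, edgeR adjusted p = 0.591). With upper quartile scaling, or without either control replicate, 0 of the 7 beta subunits were called at 2 h. PSMB2 (log2 -0.18, SE 0.09) and PSMB4 (log2 -0.06, SE 0.10) were not called. The beta ring sums were 1303 and 1360.0 CPM in controls, 1204 and 1148 CPM at 2 h, and 1318 and 1236 CPM at 4 h.

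The 3 inducible subunits of the immunoproteasome differed from the rest of the core in the sign of their estimates, but none was called at either time. That sign leaned on 2 h replicate 1: their median log2 fold change was 0.20 with all libraries, 0.041 without that replicate and 0.32 without 2 h replicate 2. PSMB8, the interferon-induced counterpart of PSMB5, had 21.0 and 22.0 CPM in controls, 26.8 and 21.5 CPM at 2 h, and 23.2 and 19.1 CPM at 4 h (log2 at 2 h 0.16, SE 0.14, edgeR adjusted p = 0.403). PSMB10, the counterpart of PSMB7, had 4.86 and 4.54 CPM in controls, 5.96 and 4.84 CPM at 2 h, and 4.59 and 5.59 CPM at 4 h (log2 at 2 h 0.20, SE 0.18, edgeR adjusted p = 0.433). The 2 h libraries of both genes overlapped their controls. PSMB9, the counterpart of PSMB6, was scarce, with 25 and 34 counts in controls, 62 and 38 counts at 2 h, and 29 and 32 counts at 4 h. Its 2 h libraries lay above both controls, with replicate 1 well above replicate 2 (log2 0.65, SE 0.38, edgeR adjusted p = 0.212). Per kilobase of annotated exon, PSMB8 stood at 10.0% and 9.88% of PSMB5 in controls, 13.1% and 11.2% at 2 h, and 10.6% and 8.92% at 4 h. On the same scale PSMB9 stood at 0.338% and 0.436% of PSMB6 in controls, 0.860% and 0.555% at 2 h, and 0.399% and 0.442% at 4 h. PSMB10 stood at 1.91% and 1.72% of PSMB7 in controls, 2.32% and 2.06% at 2 h, and 1.77% and 2.38% at 4 h. In the case of each pair the ratio was higher in both 2 h libraries than in both controls, a difference that was not tested. PSMB8 and PSMB9 share 27.4% and 30.2% of their exon length with each other or with PSMB8-AS1, and PSMB10 shares 45.3% with another annotated gene, so these values are uncertain. Leukocytes carry immunoproteasomes, and their marker list summed to between 43.6 and 54.2 CPM per library, of which CD68, also made by other cells, gave between 42.5 and 51.1 CPM. PTPRC, CD3E, LYZ and ITGAM had at most 5 counts in any library. CD14 had 2.56 and 1.86 CPM at 2 h against 0.405 and 0.797 CPM in controls (log2 1.87, edgeR adjusted p = 0.00135), and its part in the immunoproteasome values was not tested.

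**Figure D2:**
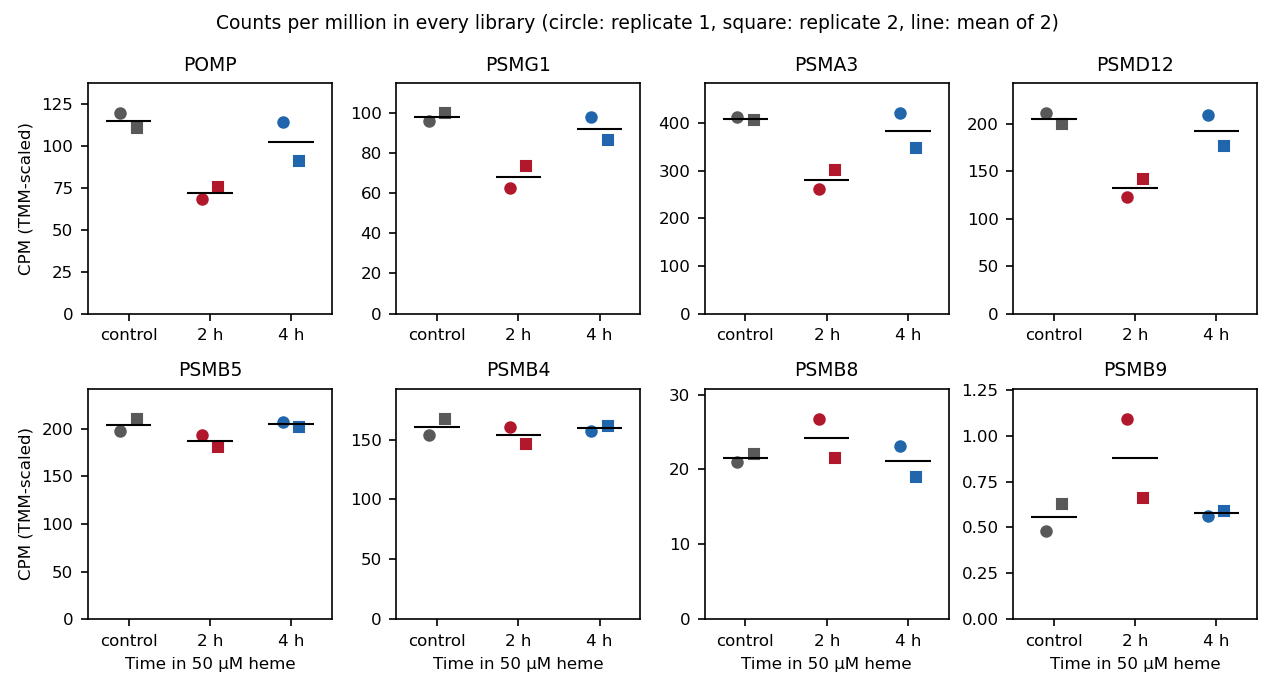
CPM of 8 members in every library, with circles for replicate 1, squares for replicate 2 and a line at the mean of each group. POMP, PSMG1, PSMA3 and PSMD12 were lowest in both 2 h libraries, PSMB5 and PSMB4 differed little between groups, and PSMB8 and PSMB9 were highest in 2 h replicate 1.

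Among the ATPases, which unfold substrates and open the core, PSMC6 and PSMC1 fell at 2 h. PSMC6 had 133 and 126 CPM in controls, 96.5 and 104 CPM at 2 h, and 131 and 108 CPM at 4 h (log2 at 2 h -0.37, SE 0.11, edgeR adjusted p = 0.0181). PSMC1 had 86.4 and 76.5 CPM in controls, 66.1 and 65.0 CPM at 2 h, and 82.0 and 70.2 CPM at 4 h (log2 at 2 h -0.31, SE 0.11, edgeR adjusted p = 0.0414). PSMC3, with 149.6 and 149 CPM in controls, 128 and 120.3 CPM at 2 h, and 154 and 137 CPM at 4 h, missed the threshold (log2 at 2 h -0.26, SE 0.10, edgeR adjusted p = 0.0536). PSMC2 (log2 -0.26), PSMC5 (log2 -0.22) and PSMC4 (log2 -0.12) were not called either. With upper quartile scaling, and with a replicate block, 1 of the 6 ATPases was called. The median log2 fold change of the ATPases was -0.26, and it was -0.25 without control replicate 1 and -0.29 without control replicate 2. For all 6 ATPases both 2 h libraries lay below both controls, against 33.2% of all tested genes. For PSMC4 the gap was less than the rounding of the values.

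The non-ATPase subunits held the most significant fall of the regulatory particle, that of PSMD12, a scaffold subunit of its lid. PSMD12 had 211 and 199.8 CPM in controls, 123 and 142 CPM at 2 h, and 209 and 176 CPM at 4 h (log2 at 2 h -0.63, SE 0.11, edgeR adjusted p = 6.80e-04). PSMD6, another lid subunit, had 104 and 98.7 CPM in controls, 70.7 and 76.9 CPM at 2 h, and 95.2 and 88.2 CPM at 4 h (log2 at 2 h -0.45, SE 0.10, edgeR adjusted p = 0.00361). PSMD11, the lid subunit that clamps lid and core together, had 176 and 170.5 CPM in controls, 140.5 and 137 CPM at 2 h, and 179.8 and 169 CPM at 4 h (log2 at 2 h -0.32, SE 0.09, edgeR adjusted p = 0.0158). All 3 were lowest in both 2 h libraries. PSMD1, the large scaffold of the base (log2 -0.35), PSMD14, the deubiquitinase of the lid (log2 -0.33), and PSMD13 (log2 -0.30) fell as well. PSMD2, the other large base subunit and the most abundant member in CPM, was not called, with 609.9 and 626 CPM at 2 h against 686 and 687 CPM in controls (log2 -0.15, SE 0.09). The ubiquitin receptor PSMD4 (log2 -0.23, edgeR adjusted p = 0.0813), PSMD7 (log2 -0.23) and PSMD8 (log2 -0.24) missed the threshold. PSMD3 showed no difference in its estimate, with 222 and 203 CPM at 2 h against 209 and 217 CPM in controls (log2 3.46e-04, SE 0.09). With the correction for base composition described further on, its estimate turned to -0.21.

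The chaperones that assemble the base of the regulatory particle were not called at 2 h. PSMD10 (gankyrin) had 61.7 and 58.7 CPM in controls, 50.6 and 49.7 CPM at 2 h, and 61.9 and 54.9 CPM at 4 h (log2 at 2 h -0.26, SE 0.11, edgeR adjusted p = 0.0729). PSMD5 had 76.9 and 77.3 CPM in controls, 60.5 and 69.6 CPM at 2 h, and 84.9 and 79.4 CPM at 4 h (log2 at 2 h -0.24, SE 0.10, edgeR adjusted p = 0.0875). PSMD9 had 20.4 and 21.0 CPM in controls, 19.3 and 17.8 CPM at 2 h, and 20.4 and 20.6 CPM at 4 h (log2 at 2 h -0.16, SE 0.12, edgeR adjusted p = 0.348). Both 2 h libraries of each lay below both controls, which held for 33.2% of all tested genes. The activators that dock on the core in place of the regulatory particle were not called at 2 h. PSME1 and PSME2 form the interferon-induced 11S cap. PSME1 had 136 and 137 CPM in controls, 160.4 and 128 CPM at 2 h, and 147 and 126 CPM at 4 h (log2 at 2 h 0.08, SE 0.12, edgeR adjusted p = 0.631). PSME2 had 161 and 161 CPM in controls, 153 and 134 CPM at 2 h, and 162 and 142 CPM at 4 h (log2 at 2 h -0.17, SE 0.10, edgeR adjusted p = 0.237). PSME3, which forms the nuclear 11S cap, had 272 and 282 CPM in controls, 237 and 237 CPM at 2 h, and 286 and 279 CPM at 4 h (log2 at 2 h -0.23, SE 0.09, edgeR adjusted p = 0.0629). PSME4, the single-chain activator of nuclear proteasomes (log2 -0.02, SE 0.10), and PSMF1, known as an inhibitor of the core (log2 -0.05, SE 0.09), overlapped their controls.

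**Figure D3:**
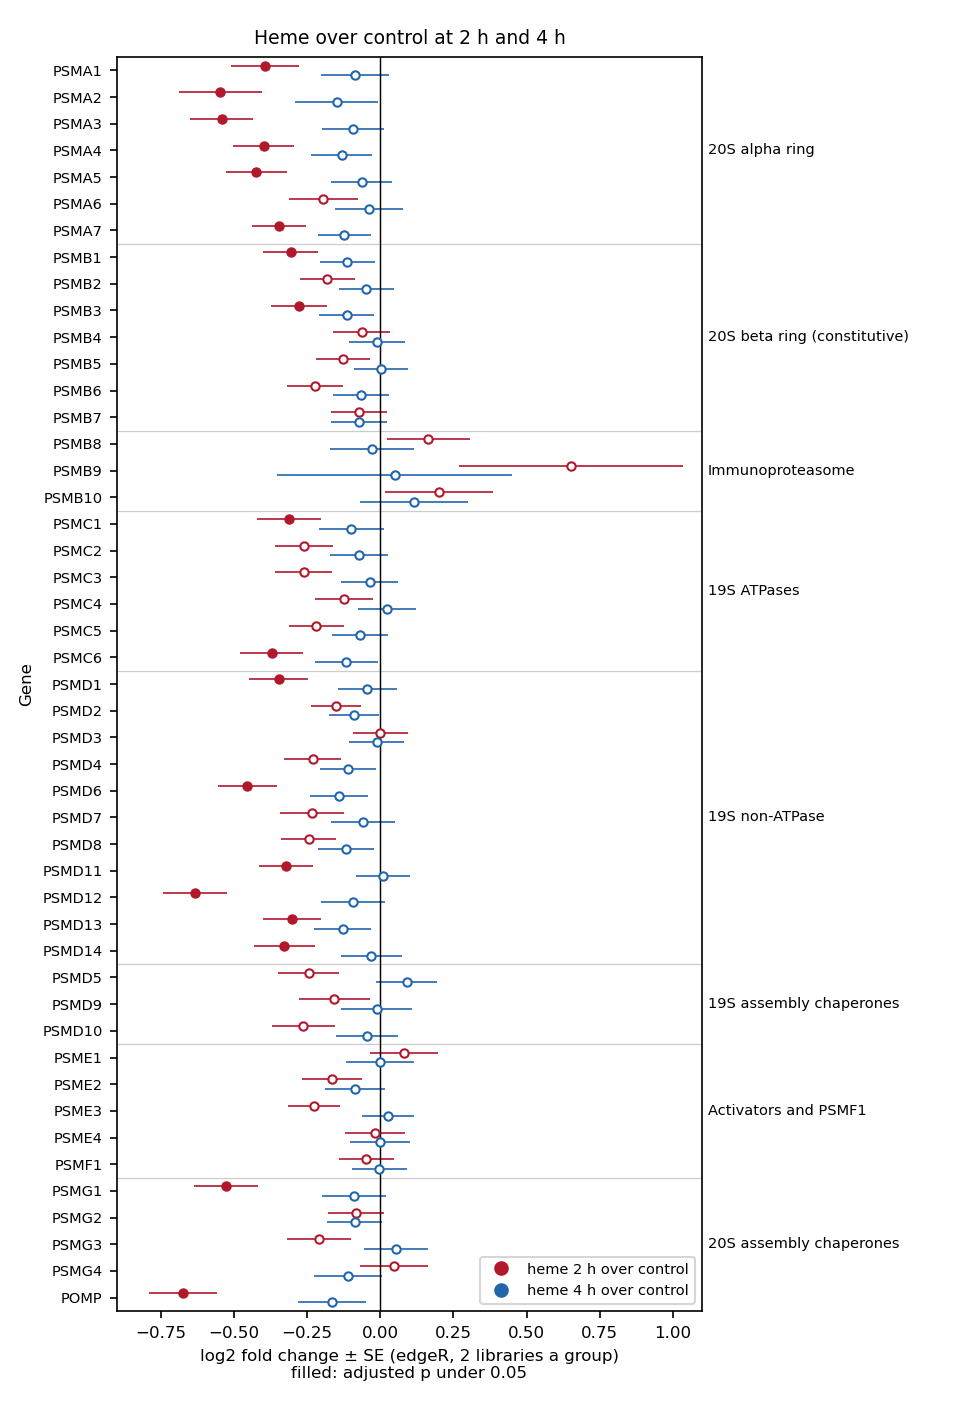
Log2 fold change with its SE for each tested member at 2 h over control (red) and 4 h over control (blue), with filled points for an adjusted p under 0.05. The 18 filled points are all at 2 h and left of 0, and the 4 h points run from -0.17 to 0.12.

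The promoters of the members that were called under every alternative setting are shown with that of PSMB9, whose estimate at 2 h was the highest of the members. They come from the RefSeq table of GRCh38.p14, which held 43 of the 49 members, and run from 250 bases before to 50 bases after the start, 5′ to 3′ on the strand of the gene. They lie at chr13:28658880-28659179 (POMP, plus strand), chr17:67366528-67366827 (PSMD12, minus strand), chr21:39183402-39183701 (PSMG1, minus strand), chr14:58244593-58244892 (PSMA3, plus strand) and chr6:32853942-32854241 (PSMB9, plus strand). Capitals mark matches on either strand to TGACNNNGC, the core of the antioxidant response element that NFE2L1 and NFE2L2 bind, and to CCAAT, the CCAAT box.
POMP: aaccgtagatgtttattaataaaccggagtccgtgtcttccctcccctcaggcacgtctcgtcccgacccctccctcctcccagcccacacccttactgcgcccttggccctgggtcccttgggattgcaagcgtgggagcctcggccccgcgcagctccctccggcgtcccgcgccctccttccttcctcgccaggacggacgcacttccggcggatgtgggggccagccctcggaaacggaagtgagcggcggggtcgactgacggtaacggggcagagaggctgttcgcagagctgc
PSMD12: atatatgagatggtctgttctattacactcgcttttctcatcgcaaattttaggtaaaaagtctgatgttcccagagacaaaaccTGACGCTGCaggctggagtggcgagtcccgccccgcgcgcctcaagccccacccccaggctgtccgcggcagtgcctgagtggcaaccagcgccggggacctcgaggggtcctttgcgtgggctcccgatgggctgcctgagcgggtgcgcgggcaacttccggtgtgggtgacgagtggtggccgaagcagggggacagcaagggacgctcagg
PSMG1: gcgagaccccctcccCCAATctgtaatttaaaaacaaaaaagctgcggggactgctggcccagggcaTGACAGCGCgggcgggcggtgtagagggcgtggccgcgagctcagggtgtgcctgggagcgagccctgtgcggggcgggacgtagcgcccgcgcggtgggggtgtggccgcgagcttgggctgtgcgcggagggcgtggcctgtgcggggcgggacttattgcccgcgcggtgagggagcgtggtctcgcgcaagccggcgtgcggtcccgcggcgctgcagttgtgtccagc
PSMA3: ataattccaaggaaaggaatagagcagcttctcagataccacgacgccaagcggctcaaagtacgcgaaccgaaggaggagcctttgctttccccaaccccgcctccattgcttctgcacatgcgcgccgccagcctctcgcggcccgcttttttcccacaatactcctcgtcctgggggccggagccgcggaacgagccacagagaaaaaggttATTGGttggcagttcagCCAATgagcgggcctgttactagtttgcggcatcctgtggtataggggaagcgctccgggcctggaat
PSMB9: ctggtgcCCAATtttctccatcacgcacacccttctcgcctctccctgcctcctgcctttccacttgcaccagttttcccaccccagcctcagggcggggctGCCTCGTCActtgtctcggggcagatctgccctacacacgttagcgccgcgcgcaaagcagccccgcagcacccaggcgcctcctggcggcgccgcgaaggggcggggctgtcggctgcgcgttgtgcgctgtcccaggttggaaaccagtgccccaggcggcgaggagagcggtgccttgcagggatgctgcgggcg

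POMP held neither motif in this window, PSMD12 held a TGACNNNGC match, PSMA3 held a pair of CCAAT matches in opposite orientation, and PSMG1 and PSMB9 each held a match to both motifs. TGACNNNGC was found in 28.8% of the 52 member promoters and in 13.3% of all 35116 promoters in the table, and CCAAT in 38.5% and 34.6%. Of the 15 tested members with TGACNNNGC 5 fell at 2 h (median log2 -0.17), and of the 26 without it 11 fell (median log2 -0.26). Of the 19 tested members with CCAAT 8 fell (median log2 -0.26), and of the 22 without it 8 fell (median log2 -0.16). Of all tested genes 15.8% fell at 2 h, and of those with a mean of at least 20 CPM 25.6%. The share among all genes with each motif was not computed. A match is a description of the letters and not a binding site.

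The size of the fall at 2 h went with the base composition of the transcript. Across the 47 tested members the log2 fold change at 2 h and the GC content of the longest coding transcript had Pearson's r = 0.597 and Spearman's rho = 0.613. Across 16123 tested genes with a transcript the values were 0.261 and 0.307. These are descriptions across genes that share their libraries. Of the 16 members of lowest GC content (34.6% to 45.5%) 10 fell, of the middle 16 (45.8% to 53.1%) 6 fell, and of the 15 of highest GC content (53.1% to 60.1%) 2 fell. For all tested genes the share that fell in each of these GC ranges was not computed, so these counts have no background beside them. Among tested genes with a transcript, the median log2 fold change at 2 h also rose with GC content. That median was -0.207 at 26.5% to 38.8% GC and 0.269 at 61.9% to 76.2% GC. The alpha subunits had a median GC content of 42.1% and the constitutive beta subunits of 51.8%. POMP, PSMC6, PSMA5 and PSMD12 had the lowest GC content of the tested members. PSMA7, at 53.1% GC, fell, and PSME4, at 41.5% GC, was not called. With transcript length the correlation was weak (rho = -0.128).

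With a correction of each library for GC content and transcript length, chosen after the data were seen, 32 of 47 members (68.1%) fell at 2 h and 0 rose, against 28.0% of all tested genes that fell and 14.6% that rose. Of the 18 members called without the correction, 16 were among these 32, and PSMA5 and PSMC6 were not. By role, 5 of 7 alpha subunits, 5 of 7 constitutive beta subunits, 4 of 6 ATPases, 11 of 11 non-ATPase subunits and 4 of 5 core assembly factors fell with it. The 3 immunoproteasome subunits were still not called, and their median log2 fold change was 0.0077. The counts of alpha and beta subunits were equal with the correction, but the median log2 fold changes were -0.41 for the alpha and -0.23 for the beta subunits with it, and -0.40 and -0.18 without it. Over all tested genes the median was -0.075 with the correction and 0.017 without it.

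**Figure D4:**
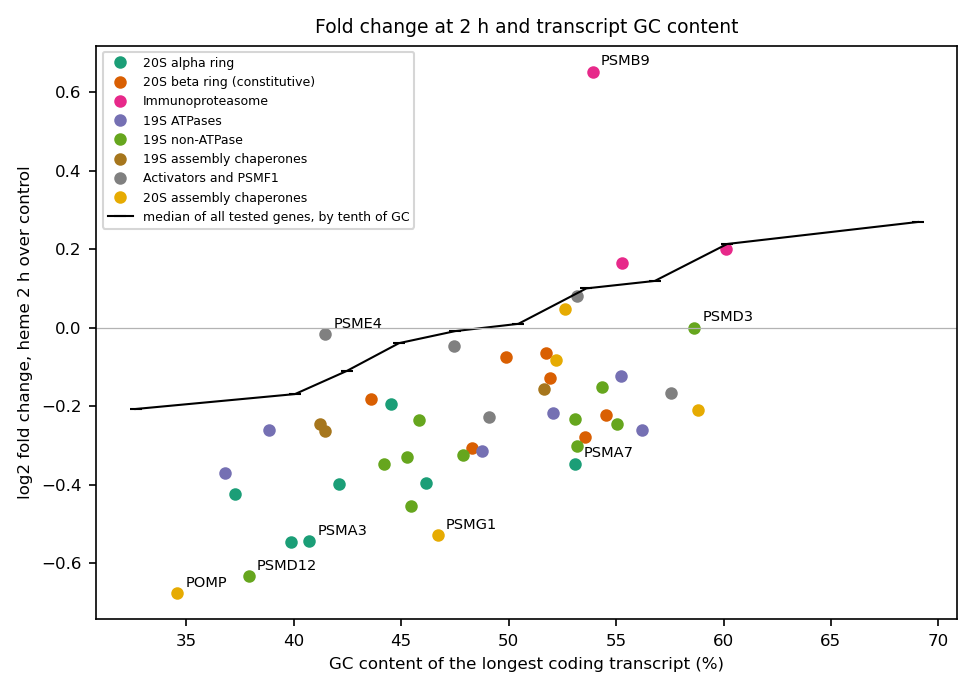
Log2 fold change at 2 h against the GC content of the longest coding transcript for the 47 tested members, coloured by role. The black line joins the medians of all tested genes in 10 bins of GC content, from -0.207 in the lowest bin to 0.269 in the highest, and the members of lowest GC content lie at the bottom left.

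At 4 h none of the 47 tested members was called against control by edgeR in either direction. That was also so at an unadjusted p under 0.05 and by DESeq2. Of all tested genes 0.00617% fell and 0.0247% rose at 4 h (0.0308% in either direction), and among those with a mean of at least 20 CPM 0.0127% fell and 0.0508% rose, so that the count for the members is close to this background. With the GC and length correction it was also 0, against 0.0555% of all genes that fell and 0.0432% that rose. The median log2 fold change of the members was -0.07, and the single values ran from -0.17 for POMP to 0.12 for PSMB10, with SE between 0.09 and 0.40. The 4 h libraries differed from each other: the median log2 ratio to the control mean was 0.0054 in replicate 1 and -0.15 in replicate 2. Replicate 2 lay below both controls for 35 of 47 members and replicate 1 for 13. For single libraries the share of all tested genes was not computed, so these counts have no background beside them. Both 4 h libraries lay below both controls for 12 members (25.5%), against 17.4% of all tested genes. They included PSMA7, PSMB1 and PSMB3, whose log2 values were -0.12 (SE 0.09), -0.11 (SE 0.09) and -0.11 (SE 0.09).

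The mean of the 4 h libraries lay between those of the 2 h and control libraries for 36 of 47 members. The share of all tested genes with such a 4 h mean was not computed, so this count has no background beside it. In the direct comparison of 4 h with 2 h, 12 of 47 members (25.5%) were higher and 0 lower, against 14.0% and 14.1% of all tested genes (28.1% in either direction). Both 4 h libraries lay above both 2 h libraries for 32 members, against 29.6% of all tested genes, and below them for 2, against 32.7%. With the GC and length correction 32 members were higher, against 27.6% of all tested genes. Among genes with a mean of at least 20 CPM the shares were 25.6% of members and 22.1% of all genes, so that the count of members is near the background of abundant genes. PSMD12 (log2 0.54, SE 0.11, edgeR adjusted p = 0.00217), POMP (log2 0.51, SE 0.12, edgeR adjusted p = 0.00489), PSMA3 (log2 0.45, SE 0.11, edgeR adjusted p = 0.0062) and PSMG1 (log2 0.44, SE 0.11, edgeR adjusted p = 0.0086) were higher at 4 h than at 2 h. PSMA2 (log2 0.40), PSMA5 (log2 0.36), PSMD5 (log2 0.34), PSMD11 (log2 0.33), PSMD6 (log2 0.31), PSMD1 (log2 0.30), PSMD14 (log2 0.30) and PSME3 (log2 0.25) were higher too. PSMD5 and PSME3 were called in this comparison and not at 2 h against control. The count rested on 4 h replicate 1, without which only PSMD12 was called; 6 were called without control replicate 1, 6 without 2 h replicate 1 and 8 without control replicate 2. Both comparisons use the 2 h libraries, so their values are not independent of each other.

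Genes that work with the proteasome but carry other symbols were counted from lists made for the purpose. Of 17 proteasome-associated factors 5 fell at 2 h (29.4%) and 0 rose, against 15.8% and 15.9% of all tested genes. All 17 had a mean above 20 CPM, where 25.6% of genes fell, so that this count is near the background of abundant genes. The 5 were the regulatory particle subunit SEM1 (log2 -0.48, SE 0.12), the proteasome-bound deubiquitinases UCHL5 (log2 -0.50, SE 0.14) and USP14 (log2 -0.39, SE 0.10), and the ubiquitin shuttles UBQLN1 (log2 -0.30) and UBQLN2 (log2 -0.53, SE 0.11). UBQLN2 had 48.1 and 45.4 CPM in controls, 31.0 and 33.5 CPM at 2 h, and 52.4 and 49.2 CPM at 4 h. The ubiquitin receptor ADRM1 was not called (log2 -0.13, SE 0.10). USP14, UBQLN1 and UBQLN2 were higher at 4 h than at 2 h.

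Of 12 genes around NFE2L1 and NFE2L2, 3 rose (25.0%) and 2 fell (16.7%) at 2 h, against 15.9% and 15.8% of all tested genes. All 12 had a mean above 20 CPM, where 13.5% of genes rose and 25.6% fell. With 12 genes, neither count lies far from this background. NFE2L1 itself had 344 and 352 CPM in controls, 474 and 401 CPM at 2 h, and 373 and 364 CPM at 4 h (log2 at 2 h 0.33, SE 0.10, edgeR adjusted p = 0.0183). Both 2 h libraries exceeded the other 4. The small MAF partners MAFF (log2 0.79, SE 0.11) and MAFG (log2 0.56, SE 0.12) rose. The protease DDI2, which cleaves NFE2L1 into its active form (log2 -0.39, SE 0.11), and VCP, the ATPase that extracts it from the endoplasmic reticulum (log2 -0.37, SE 0.09), fell. Of 6 ubiquitin and E1 enzyme genes RPS27A, which encodes ubiquitin fused to a ribosomal protein, fell (log2 -0.39, SE 0.11) and 0 rose. That was a share of 16.7%, against 15.8% of all tested genes. All 6 had a mean above 20 CPM, where 25.6% of genes fell. The polyubiquitin gene UBB was not called (log2 -0.14, SE 0.10). Of 10 genes of interferon control and peptide loading 4 rose (40.0%, against 15.9% of all tested genes) and 0 fell (against 15.8%): IRF1 (log2 0.75, SE 0.14), STAT2 (log2 0.75, SE 0.12), NLRC5 (log2 0.74, SE 0.25) and TAPBP (log2 0.44, SE 0.11). TAP1, which lies beside PSMB9, was not called (log2 0.26, SE 0.13, edgeR adjusted p = 0.143), nor was B2M (log2 -0.18, SE 0.10). None of the 45 genes of these 4 lists was called at 4 h against control by edgeR, and IRF1 alone had an unadjusted p under 0.05.

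Overlapping annotation touches some of these values. In GENCODE release 29 on GRCh38, 18 of the 49 members share at least 0.7% of their exon length with another gene. Without the strand setting of the counting, the reads of these members cannot be assigned with certainty. PSME4 overlaps ACYP2 on the opposite strand by a share that rounds to 0.0%, and was counted with the members without overlap. At 2 h 15.8% of all tested genes fell, and 25.6% of those with a mean of at least 20 CPM. Of the 29 tested members counted without overlap 12 fell at 2 h (41.4%), and of the 18 with overlap 6 fell (33.3%). Those 6 included PSMC1, with 82.1% of its exon length shared, PSMA2 with 54.1% (by MRPL32 on the opposite strand and another gene) and PSMA1 with 35.7%. POMP (ENSG00000132963.7, chromosome 13, 28659104 to 28678925), PSMA3 (ENSG00000100567.12, chromosome 14, 58244831 to 58272012), PSMG1 (ENSG00000183527.11, chromosome 21, 39174769 to 39183851) and PSMD12 (ENSG00000197170.9, chromosome 17, 67337916 to 67366627) share none. Per kilobase of exon, PSMA3 had the highest control level of the members at 421 CPM, and PSMB9 the lowest of the tested ones at 0.604 CPM.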

How the data were processed

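The authors deposited 1 table of raw read counts per gene symbol for each library, in the layout of HTSeq. The tools named in the submitters' processing notes are STAR, Trimmomatic, deepTools and SAMtools, with build hg38. Annotation and strand setting: not given in the sources used here. Per the labels, Trizol was used to isolate RNA and TruSeq chemistry to make libraries. Library sizes excluded the 5 summary lines (reads outside genes 5.48% to 6.88%, ambiguous reads 4.23% to 4.48%). Depth ran from 53129375 to 55537611 counts; a count of 0 allows 3 counts, covering counting error only. Within each group the replicates differed beyond sampling noise, with a chi-square of 8.78 to 33.9 per gene.

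Genes were tested with edgeR 4.0.16 in R 4.3.3: TMM, filterByExpr (minimum count 10), all 6 libraries in 1 quasi-likelihood fit with 3 residual degrees of freedom, two-sided, checked on simulated counts. The SE follows from the F statistic of each contrast. The settings also tried were DESeq2 1.42.0, edgeR with DESeq2 size factors, upper quartile scaling, no filter, a replicate block, only the compared groups, leaving out each library and, added later, a spline correction for GC content and length. Lengths and GC content came from GENCODE release 29. The members and lists were chosen with earlier results of these data known. Values per library were given for the 3 members of each role with the smallest p at 2 h and for the immunoproteasome subunits. The other members, and the called genes of each list, were given with fewer values. Uncalled genes of the lists (ADRM1, UBB, TAP1, B2M) were picked after their values were seen. Some genes of the lists are not reported here.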

Additional observations from a re-analysis of the deposited data

Results flagged for a closer look

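The effect of heme differed between 2 h and 4 h by the direct test of the 4 h against the 2 h libraries for 12 members. These were 25.5% of the 47 tested members, all higher at 4 h. Of all tested genes 14.0% were higher, and 28.1% were called in either direction. Among genes with a mean of at least 20 CPM, 25.6% of members and 22.1% of all genes were higher, so that the count is near this background. The difference (4 h effect minus 2 h effect, log2) was 0.54 for PSMD12, 0.51 for POMP, 0.45 for PSMA3, 0.44 for PSMG1, 0.40 for PSMA2, 0.36 for PSMA5, 0.34 for PSMD5, 0.33 for PSMD11, 0.31 for PSMD6, 0.30 for PSMD1, 0.30 for PSMD14 and 0.25 for PSME3. PSMD12 was called in this comparison under all 13 alternatives, POMP, PSMA3, PSMD11 and PSMG1 under 12, and PSME3 under 5.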

How the results depend on the processing

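At 2 h against control, the number of members called lower was 18, and it ran from 13 to 23 under the settings that kept all libraries and made no GC correction, and from 4 to 22 when 1 library was left out. It was 32 with the GC and length correction. The 4 h libraries were higher than the 2 h libraries for 12 members, for 6 with upper quartile scaling, 7 with only the compared groups in the fit, 32 with the GC and length correction, and between 1 and 15 when 1 library was left out. The median log2 change of the members moved with the GC and length correction to -0.31 at 2 h against control and 0.28 at 4 h against 2 h. The median over all tested genes moved the same way, from 0.017 to -0.075 at 2 h and from -0.027 to 0.068 at 4 h against 2 h. Without a library the median of the members ran between -0.15 and 0.0093 at 4 h against control, and between 0.11 and 0.26 at 4 h against 2 h. PSMD3 turned to -0.21 at 2 h against control and to 0.18 at 4 h against 2 h with that correction. Over all tested genes 2557 were lower and 2579 higher at 2 h, 1993 and 3056 with upper quartile scaling, and 4544 and 2372 with the correction. The replicate block left 16 members lower at 2 h and 8 higher at 4 h against 2 h. Replicate numbers are only a number here: the deviations of same-numbered libraries correlated between -0.0908 and 0.065 over genes. Over all genes at 2 h, 1113 were lower and 1208 higher without control replicate 1, and 1572 and 1407 without control replicate 2. At 4 h against 2 h, 2288 genes were lower and 2270 higher, 2804 and 1773 with upper quartile scaling, 2273 and 4475 with the correction, 1033 and 1166 without 4 h replicate 1, and 1519 and 1932 without 4 h replicate 2. By role, 1 of 7 alpha subunits was called at 2 h without control replicate 1 and 4 without control replicate 2, in place of 6. 0 members were called at 4 h against control under each alternative. For the changes named, the cause was not tested. With 2 libraries a group, 4 of the 18 calls at 2 h remained without control replicate 1.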
